A study of Homo sapiens and Mus musculus with 24 samples.

Results

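The mRNAs of the cytosolic ribosomal proteins were examined in UPA-seq, an assay that sequences the RNA left in the aqueous phase when phenol-based extraction follows UV irradiation of living cells. Members were the protein-coding genes of human and mouse whose symbol is RPL or RPS followed by digits and at most one letter A, X or L, together with RPLP0, RPLP1, RPLP2 and RPSA. This rule gave 81 of 58381 human genes and 80 of 53715 mouse genes, 161 in all, and it used no measured value. The human members comprised 49 genes of the large subunit and 32 of the small subunit, and the mouse members 49 and 31. Pseudogenes named after a member, of which the files list 1592 in human and 288 in mouse, were kept apart.

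The ribosome is built from ribosomal RNA and one copy each of most of these proteins, and cells need the proteins in matched amounts. Their mRNAs are short, abundant and long-lived, and in vertebrates most begin with a C followed by an unbroken run of pyrimidines, the 5′ terminal oligopyrimidine (TOP) tract, through which mTOR and LARP1 control translation of the whole set. UV light links RNA to proteins in direct contact, and linked RNA moves with the protein out of the aqueous phase. A crosslink can also hinder reverse transcription, so a count here measures what was recovered and reverse transcribed and not the amount of RNA in the cell.

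Nonirradiated (UVm) and UV-irradiated (UVp) samples were compared in 4 cell types with 3 samples each. These were the human hepatocellular carcinoma line HepG2, the human embryonic kidney line labelled HEK293 and given as HEK293T in the culture methods, the mouse neuroblastoma line Neuro2a, and hippocampal neurons cultured from mouse embryos of day E16.5 (HippCulture), which were treated with AraC against dividing glia. Irradiation was the sole treatment that separated the groups, and no sample is labelled with a genetic change. The study describes its triplicates as biological, while the labels tie no sample to a culture of its own, so p-values measure the spread between these samples. Total RNA depleted of ribosomal RNA was sequenced, and 6910907 to 53511592 reads per sample were assigned to genes, with HepG2 (at least 36573473) far deeper than the others (at most 11188033). HepG2 was also sequenced on another instrument model, so cell line and run cannot be told apart where HepG2 is set against HEK293.

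Markers of the labelled cells were present where they should be. All 7 hepatocyte markers were tested in HepG2, with a summed level of 21092 to 28728 CPM without UV, against at most 1.26 CPM in HEK293. Marker levels are CPM on library totals alone, so their changes with UV are not on the scale of the log2 fold changes below. The CPM of single members below are counts divided by the scaled library size. In Neuro2a 6 of 7 sympathetic neuroblast markers were tested, but Gata3 was at 0.39 CPM and the summed level was carried by Hand2 and Gata2. HippCulture held 3398 to 3795 CPM of 8 neuron markers without UV and 1723 to 2251 with UV, beside 573 to 675 and 484 to 620 CPM of 5 astrocyte markers, so glial markers were present. All 5 oligodendrocyte lineage markers were tested there too (98.4 to 116 CPM without UV, 74.4 to 112 with UV), and microglia markers summed to at most 7.35 CPM. No marker list was used for HEK293. The part of such mixtures in the results was not tested.

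The start of the human transcripts was read from RefSeq windows (build GRCh38.p14), which were found for 64 of the 81 members. Below are 15 bases before and 15 from the annotated start, for the members with a window whose UV effect in HepG2 was highest (RPL35, RPL36, RPS9) and lowest (RPL7A, RPL4, RPL28, RPS27L), and for RPL22. Capitals mark an unbroken run of C or T that opens with C at the start and holds at least 4 more pyrimidines, and lower case throughout means that the start has no such run.
RPL35, chr9:124861943-124861972, minus strand: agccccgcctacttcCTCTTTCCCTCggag
RPL36, chr19:5690280-5690309, plus strand: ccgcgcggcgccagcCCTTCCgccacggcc
RPS9, chr19:54200843-54200872, plus strand: gtggcgcttccgcgcCTCTTTCTCagtgac
RPL7A, chr9:133348203-133348232, plus strand: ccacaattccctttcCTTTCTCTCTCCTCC
RPL4, chr15:66504841-66504870, minus strand: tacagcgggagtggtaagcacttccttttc
RPL28, chr19:55385917-55385946, plus strand: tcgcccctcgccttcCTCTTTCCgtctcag
RPS27L, chr15:63157463-63157492, minus strand: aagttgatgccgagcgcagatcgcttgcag
RPL22, chr1:6199581-6199610, minus strand: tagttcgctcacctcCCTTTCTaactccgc

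Such a start, searched on the strand of the gene and counted if any annotated start of the gene had it, was present in 46 of the 64 members (71.9%) and in 923 of 15239 other protein-coding genes with a window (6.06%). The run had a median of 8 bases where members had it. For RPL7A it was 16 bases long and went on past the printed window. RPL4 and RPS27L lacked it at the annotated start, although the RPL4 window holds pyrimidines further downstream. RefSeq starts are annotations, and the start used in these cells was not measured.

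After UV nearly all ribosomal protein mRNAs rose relative to the typical gene in every cell type. In HepG2 all 79 members tested rose, with a median log2 fold change of 2.49 and an interquartile range of 2.30 to 2.58. In HEK293 79 of 80 rose (median 1.87, interquartile range 1.77 to 2.00). In Neuro2a 79 of 79 rose (median 2.04, 1.93 to 2.21), and in HippCulture 77 of 77 rose (median 1.46, 1.38 to 1.56). No member fell in any of the 4, also at an unadjusted p under 0.05 and by DESeq2. The call was a Benjamini-Hochberg adjusted p under 0.05 by edgeR's quasi-likelihood test over all genes with at least 0.5 CPM on average without UV. Log2 fold changes are UV over nonirradiated after TMM scaling, which sets the typical gene near 0.

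Of all genes tested in HepG2, 38.1% rose and 40.7% fell. The same shares were 24.2% and 26.4% for HEK293, 28.9% and 33% for Neuro2a, and 26.1% and 25.9% for HippCulture. The median of all genes was -0.08, -0.08, -0.14 and -0.04 in the same order. Every irradiated sample lay above every nonirradiated sample for 79, 79, 79 and 77 members, against 39.6%, 27.1%, 30.4% and 29.3% of all genes tested. Few nuclear protein-coding genes reached the members' median or more, namely 0.823% of those tested in HepG2, 1.04% (HEK293), 1.43% (Neuro2a) and 1.55% (HippCulture). These shares count the members themselves, which reach their own median in part by definition.

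**Figure D1:**
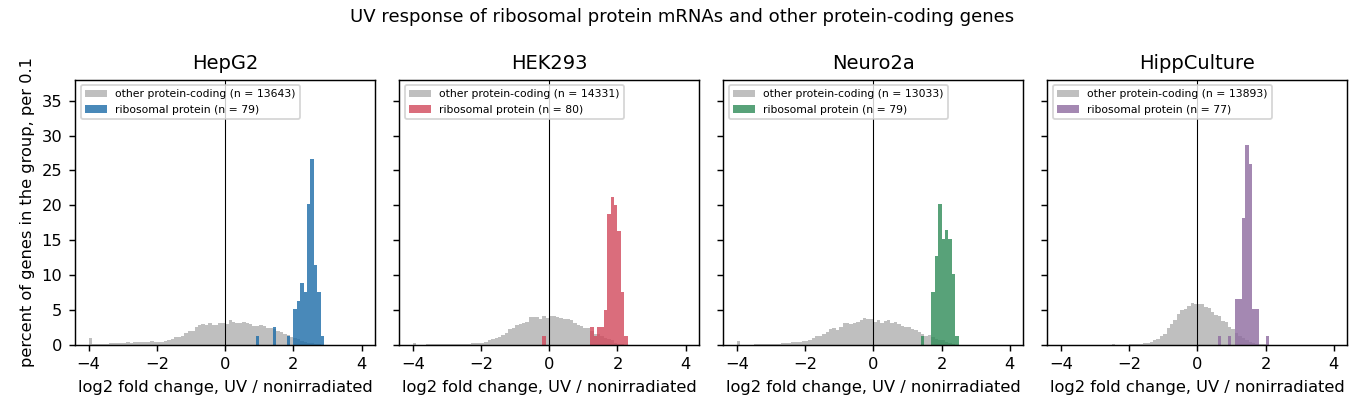
Log2 fold change (x axis, UV over nonirradiated) of ribosomal protein mRNAs (coloured) and other protein-coding genes (grey) in each cell type, as the percent of each group per bin of 0.1 (y axis), with values beyond 4 in either direction placed in the end bins. The members form a narrow peak with medians of 2.49, 1.87, 2.04 and 1.46, while the other genes spread around 0.

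The size of these changes depends on how libraries are scaled. With library totals alone, the HepG2 median was -1.39 for all genes and 1.18 for the members. The pair of medians was -0.84 and 1.11 for HEK293, -1.33 and 0.84 for Neuro2a, and -0.59 and 0.90 for HippCulture. The distance between both medians hardly moved, at 2.57 against 2.57, 1.95 against 1.95, 2.18 against 2.17 and 1.5 against 1.48. On that scale the members that rose numbered 76 of 79 (HepG2), 79 of 80 (HEK293), 79 of 79 (Neuro2a) and 76 of 77 (HippCulture). None fell past the threshold, and RPL3L in HepG2 turned negative without a call (-0.35). The split of all genes became 8.56% higher and 78.7% lower for HepG2, 7.59% and 54.7% for HEK293, 6.06% and 73.8% for Neuro2a, and 7.13% and 49.5% for HippCulture.

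A share of the library does not depend on a scaling factor. In HepG2 the members held 2.86, 4.01 and 3.86% of all counts without UV and 7.84, 7.91 and 7.76% with UV. In HEK293 the shares were 6.50, 7.60 and 7.73% against 13.3, 16.0 and 16.9%. In Neuro2a they were 5.53, 6.29 and 6.09% against 9.97, 10.8 and 11.6%. HippCulture had by far the lowest shares, 1.22, 1.39 and 1.13% against 2.11, 2.09 and 2.56%. The groups did not overlap in any cell type, and the irradiated mean was 2.19, 2.12, 1.81 and 1.81 times the nonirradiated one. For 3 against 3 samples the two-sided exact permutation test gave p = 0.1, the smallest it can give.

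Within nuclear protein-coding counts the gain was larger. The members' share of HepG2 libraries went from 4.69% ± 0.65 to 14.8% ± 0.31 (mean ± SD, n = 3). It reached 21.6% ± 1.6 after 8.68% ± 0.83 for HEK293, 19.7% ± 1.5 after 7.95% ± 0.48 for Neuro2a, and 3.91% ± 0.25 after 1.68% ± 0.10 for HippCulture. These are ratios of 3.16, 2.49, 2.48 and 2.33, again with no overlap between groups. Other parts of the libraries moved at the same time. The 10 genes with the most counts took 9.43 to 32.4% of a nonirradiated library and 21 to 52.4% of an irradiated one. Transcripts of the mitochondrial genome rose from 8.16, 8.58 and 13.3% to between 20.4 and 21% in HepG2. A further setting left out the 10 genes with the most counts summed over all samples of a cell type. The members' gain in share of all counts was then larger, 8.35 percentage points in place of 4.26 (HepG2), 11.9 in place of 8.12 (HEK293), 13.0 in place of 4.82 (Neuro2a) and 2.5 in place of 1.01 (HippCulture).

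**Figure D2:**
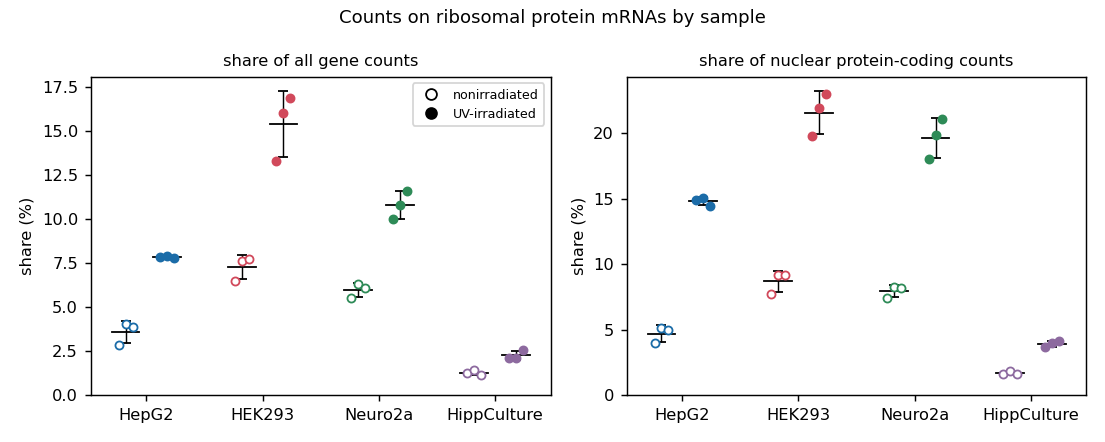
Share (y axis, percent) of all gene counts (left) and of nuclear protein-coding counts (right) on ribosomal protein mRNAs, by cell type (x axis). Points are samples, open for nonirradiated and filled for UV-irradiated, with the mean and SD of 3. Every filled point lies above every open point of its cell type, and HippCulture stays under 5%.

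Nonirradiated HepG2 replicate 1 stood apart from its group. It had the lowest level of its 3 samples for 74 of 79 members, and the highest share of mitochondrial transcripts among them (13.3%). Without it all 79 members still rose, with a median log2 fold change of 2.28. Nonirradiated replicate 1 was also lowest for 72 of 79 members in Neuro2a and for 64 of 77 in HippCulture. Among irradiated samples, replicate 3 was lowest for 73 of 79 members in HepG2, and replicate 1 for 73 of 79 in Neuro2a and 75 of 77 in HippCulture.

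Large and small subunit mRNAs had close medians, a difference that was not tested. The large subunit medians for HepG2, HEK293, Neuro2a and HippCulture were 2.47, 1.87, 2.03 and 1.42. The small subunit medians were 2.52, 1.90, 2.08 and 1.46. All 32 small subunit members tested rose in the human lines, as did all 31 in the mouse cells.

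The 3 proteins of the ribosomal stalk, the flexible arm that recruits elongation factors, all rose in every cell type. RPLP1 went from 173, 249 and 257 CPM to 1299, 1319 and 1299 in HepG2, a log2 fold change of 2.53 ± 0.15 (SE). In Neuro2a Rplp1 was the member with the highest value, 2.44 ± 0.10, with 455, 503 and 482 CPM without UV and 2436, 2569 and 2794 with UV. RPLP0, which anchors the stalk, had 2.21 ± 0.11, 1.72 ± 0.18, 1.96 ± 0.11 and 1.35 ± 0.10 in HepG2, HEK293, Neuro2a and HippCulture. RPLP2 had 2.28 ± 0.11, 1.61 ± 0.13, 1.84 ± 0.09 and 1.40 ± 0.09. RPLP1 was thus nominally above both partners in each cell type, a difference between genes that was not tested.

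Among large subunit proteins, RPL35, which lines the mouth of the exit tunnel for the new chain, stood near the top throughout (hg38 chr9:124857880-124861981). In HepG2 it had 111, 157 and 153 CPM without UV and 1065, 1022 and 943 with UV, a fold change of 7.19 (log2 2.85 ± 0.14). In HEK293 its levels went from 421, 478 and 418 to 2009, 1980 and 2023 CPM (2.19 ± 0.13). Its rank among the 77 members tested in all 4 cell types was never lower than 6. RPL36 had ranks between 2 and 7, with 2.78 ± 0.13 in HepG2 and 1.74 ± 0.11 in HippCulture. In mouse, Rpl35 shares 821 of its 1241 exon bases with another gene, and reads there count for both.

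RPL4, RPL3, RPL7A and RPL15 were lowest by mean rank over the 4 cell types, though Rpl15 ranked 47 of 77 in Neuro2a and RPS27L and RPL28 lay below all 4 in HepG2. RPL4, whose long loop reaches into the exit tunnel, had ranks 74 to 76 of 77. Its levels were high before UV, 589, 784 and 767 CPM in HepG2, and reached 2693, 2683 and 2557 (1.89 ± 0.12). RPL3, which lies near the peptidyl transferase centre, had 2.07 ± 0.08, 1.64 ± 0.14, 1.78 ± 0.16 and 1.12 ± 0.09. All of these still rose in every cell type by edgeR's quasi-likelihood test, the largest adjusted p being 0.00016 for RPL15 in HEK293.

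RPL5 and RPL11, which bind the 5S rRNA together and can hold back MDM2, lay apart in the order. RPL11 had 2.53 ± 0.18, 2.16 ± 0.13, 2.32 ± 0.11 and 1.59 ± 0.09, and RPL5 had 2.10 ± 0.14, 1.64 ± 0.12, 1.97 ± 0.15 and 1.11 ± 0.08. RPL41, the shortest member with an open reading frame (ORF) of 78 bases, had 2.51 ± 0.15, 1.89 ± 0.16, 2.38 ± 0.10 and 1.71 ± 0.10. RPL13A, which also serves in interferon-dependent translational silencing, had 2.56 ± 0.13, 2.04 ± 0.16, 2.26 ± 0.11 and 1.6 ± 0.10. RPL10, a late-joining subunit protein at the tRNA sites, had 2.50 ± 0.10, 1.80 ± 0.14, 1.74 ± 0.11 and 1.16 ± 0.08, though 2678 of its 4825 exon bases in human are shared with another gene.

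In the small subunit, RPS29 led HEK293 (206, 235 and 270 CPM without UV, 1067, 1051 and 1187 with UV, 2.22 ± 0.15) and RPS27 followed (2.18 ± 0.17). RPS19, the gene most often mutated in Diamond-Blackfan anaemia, had 2.74 ± 0.12, 2.08 ± 0.16, 2.12 ± 0.10 and 1.61 ± 0.09 in the same order. RPS14, whose loss underlies the 5q- syndrome, had 2.44 ± 0.13 in HepG2 and 1.72 ± 0.13 in HEK293. RPS6, the classic substrate of S6 kinase, had 2.35 ± 0.15, 1.75 ± 0.13, 1.87 ± 0.11 and 1.33 ± 0.09. RPSA, which is also a laminin receptor, had 2.40 ± 0.12, 1.89 ± 0.13, 2.11 ± 0.11 and 1.41 ± 0.10. RPS4X, encoded on the X chromosome, was in the lower part with 2.12 ± 0.12, 1.54 ± 0.12, 1.90 ± 0.13 and 1.29 ± 0.08. RPS27A, made as a fusion with ubiquitin, had 2.60 ± 0.16, 1.98 ± 0.14, 2.20 ± 0.12 and 1.51 ± 0.09.

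**Figure D3:**
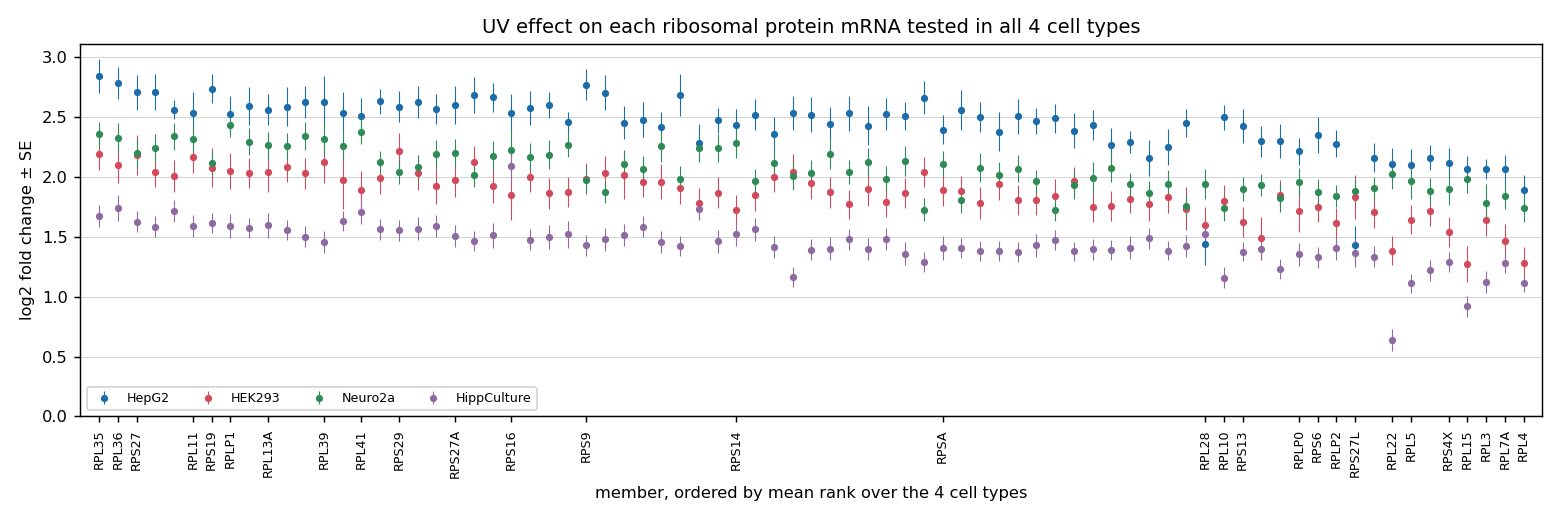
Log2 fold change with its SE (y axis) for each of the 77 members tested in all 4 cell types, ordered by mean rank (x axis, with the human symbols of members described in the text), with 1 colour per cell type. HepG2 is mostly the highest and HippCulture the lowest, values decline from RPL35 at the left to RPL4 at the right, and Rpl22 and Rpl15 in HippCulture lie below 1.

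Rps16 (mm10 chr7:28350652-28353155), a small subunit protein near the decoding site, led HippCulture. It rose from 20.2, 22.3 and 18.8 CPM to 61.7, 95.2 and 104 CPM (2.09 ± 0.15), from one of the lowest levels there, and its irradiated samples spread more, relative to their mean, than those of other members tested there. Rpl22, an RNA-binding protein of the large subunit that mice can live without (mm10 chr4:152325742-152334071), was the lowest, from 107, 131 and 110 to 169, 182 and 189 CPM (0.64 ± 0.09). Rpl15 came next with 184, 207 and 200 against 330, 401 and 387 CPM (0.92 ± 0.09). Both still rose by edgeR's quasi-likelihood test (adjusted p = 4.7e-06 and 3.8e-08), and Rpl22 fell short of the threshold on library totals alone (0.08, adjusted p = 0.67).

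Paralogs known mainly from other tissues were measured less well. RPL3L, the striated muscle form of RPL3 (hg38 chr16:1943974-1957606), had 16 to 35 reads per nonirradiated and 14 to 24 per irradiated HepG2 sample, or 0.30, 0.41 and 0.24 against 0.74, 0.53 and 0.59 CPM after scaling. Its log2 fold change of 0.95 ± 0.34 passed edgeR's quasi-likelihood test (adjusted p = 0.029). That call was lost without nonirradiated replicate 3 (adjusted p = 0.13), irradiated replicate 1 (0.10) or irradiated replicate 3 (0.055). It was also lost by DESeq2 (0.062), with every gene of at least 1 count tested (0.0504) and with at least 10 counts required in every sample (0.0512). In HEK293 the gene had 6, 6 and 16 reads without UV and 2, 4 and 10 with UV, and -0.19 ± 0.59 was not called (adjusted p = 0.80). It was the single member tested that did not rise. In Neuro2a Rpl3l had 7, 10 and 4 reads against 10, 19 and 15, with 2.37 ± 0.41 (adjusted p = 0.00019), and in HippCulture at most 1 read.

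RPL39L, a form of RPL39 best known from the testis, was at 0 to 6 reads in HepG2 and at most 1 in HippCulture, so it was not tested there. In HEK293 it had 158, 345 and 370 reads without UV and 322, 767 and 899 with UV (1.77 ± 0.33). In Neuro2a it was the member with the lowest value, 1.46 ± 0.11, at 25.5, 30.9 and 30.4 against 69.5, 84.1 and 85.8 CPM, where Rpl39 had 2.32 ± 0.13. RPL10L, a retrogene of RPL10, had 0 to 3 reads in HepG2 and at most 1 elsewhere and was not tested.

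RPS27L, which p53 can induce, and its partner RPS27 were set apart in HepG2. RPS27L went from 32.8, 52.2 and 50.1 to 124, 118 and 123 CPM (1.44 ± 0.16), and RPS27 from 179, 261 and 250 to 1533, 1521 and 1453 CPM (2.71 ± 0.15). In HEK293 RPS27L had 1.83 ± 0.18, in Neuro2a 1.89 ± 0.10 and in HippCulture 1.36 ± 0.12. RPL28 was the other low member of HepG2, with 49.2, 29.6 and 31.6 CPM against 97.1, 105 and 97.7 (1.44 ± 0.17, on hg38 chr19:55385345-55403250). On library totals alone neither RPL28 (0.14, adjusted p = 0.43) nor RPS27L (0.13, adjusted p = 0.48) was called in HepG2.

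Levels without UV differed widely among members when put per kilobase of exon. In HepG2 the median was 73.4 CPM per kb, and RPS12 (574), RPL41 (416) and RPS18 (324) were highest while RPS27L (4.93) and RPL3L (0.12) were lowest. In HEK293 the median was 172 CPM per kb, led by RPS4X (765) and RPS18 (750). In Neuro2a it was 253, led by Rplp1 (962) and Rpl19 (837), and in HippCulture 66.0, led again by Rplp1 (443). The lengths are unions of all annotated exons, so members with long rare exons, such as RPS29 with 9845 bases in human, get low values on this scale. Across members the log2 fold change had Spearman rho with the log2 level of -0.12 in HepG2 (n = 79), -0.05 in HEK293 (80), -0.16 in Neuro2a (79) and -0.45 in HippCulture (77), given as a description.

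The order of members by UV effect was shared in part. Over members with the same symbol, Spearman rho of the log2 fold changes was 0.81 between HepG2 and HEK293 (n = 79) and 0.70 between Neuro2a and HippCulture (n = 77). Between species it was 0.44 for HepG2 and Neuro2a (78), 0.61 for HepG2 and HippCulture (77), 0.52 for HEK293 and Neuro2a (79), and 0.59 for HEK293 and HippCulture (77). These pairs share no sample, but the points share gene length and base composition, and members are not independent replicates.

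Whether the UV effect itself differed between cell types was tested by an interaction term within each species. For HepG2 against HEK293, 4 of 79 members had a higher effect in HepG2, beside 3.1% of all 16759 genes tested, and none was higher in HEK293, beside 4.85%, with none at an unadjusted p under 0.05 either. The 3 of them with the highest difference were RPS13 (0.70 ± 0.20), RPL15 (0.69 ± 0.20) and RPS9 (0.68 ± 0.19), with adjusted p of 0.044, 0.047 and 0.038 by edgeR's quasi-likelihood test. RPS13 had 2.43 in HepG2 and 1.63 in HEK293, RPS9 had 2.77 and 1.98, and RPL15 had 2.07 and 1.27. RPS27L had the opposite sign without passing (-0.50 ± 0.25, adjusted p = 0.25).

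This count rested on single libraries. It was 0 without nonirradiated HEK293 replicate 2 or 3, irradiated HEK293 replicate 2, nonirradiated HepG2 replicate 3 or any irradiated HepG2 sample, and 1 without irradiated HEK293 replicate 3. It was 8 without nonirradiated HepG2 replicate 1, 9 without nonirradiated HEK293 replicate 1 and 10 without irradiated HEK293 replicate 1. The reported test ignores the replicate number. With that number as a block the count was 40, and by DESeq2 28. Deviations of samples with the same number correlated in HEK293 (mean 0.43) and hardly in HepG2 (mean 0.02). On library totals alone it was 0, with 1 member higher in HEK293.

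For Neuro2a against HippCulture, 71 of 77 members had a higher effect in Neuro2a, beside 8.41% of all 14973 genes tested, and none was higher in HippCulture, beside 16.1%, with none at an unadjusted p under 0.05 either. The median difference was 0.60 for the members and -0.14 for all genes. Rpl22 differed most, by 1.38 ± 0.17 (adjusted p = 1.1e-05), then Rpl15 by 1.06 ± 0.16 (9.7e-05) and Rpl39 by 0.86 ± 0.17 (0.0015), all by edgeR's quasi-likelihood test. Not past the threshold were 6 members, among them Rpl28 (0.42 ± 0.18), Rpl37 (0.40 ± 0.15), Rps26 (0.38 ± 0.14), Rps28 (0.33 ± 0.14) and Rps16 (0.13 ± 0.25). On library totals alone 1 member was called and the median difference was -0.01, against -0.75 for all genes, so that the distance between members and all genes (0.74) stayed while the calls did not.

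**Figure D4:**
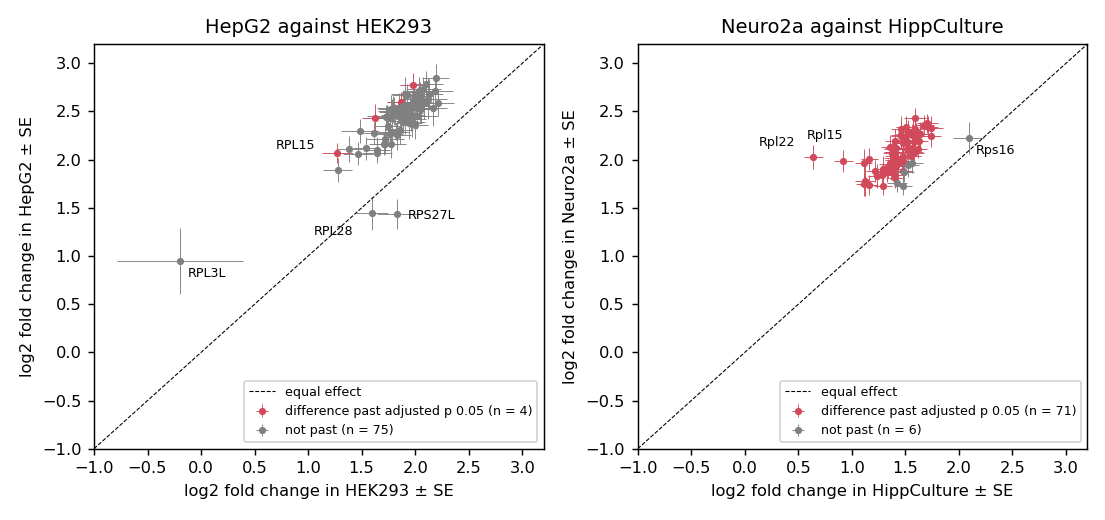
Log2 fold change with its SE of each member in the 2 human lines (left, HEK293 on the x axis, HepG2 on the y axis) and in the 2 mouse cell types (right, HippCulture on the x axis, Neuro2a on the y axis). Red points are the 4 and 71 members whose difference passed an adjusted p of 0.05, and nearly all points lie above the dashed line of equal effect, with RPS27L and RPL28 below it at left.

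Members are short genes, with a median ORF of 459 bases in human and 457.5 in mouse, against 1302 and 1173 for other protein-coding genes. Spearman rho of log2 fold change and ORF length over members was -0.43, -0.41, -0.21 and -0.48 in the same order of cell types, beside -0.39, -0.40, -0.41 and -0.32 over other protein-coding genes. With transcript length it was -0.44, -0.39, -0.23 and -0.43 over members and -0.60, -0.64, -0.58 and -0.54 over the other genes. The same coefficient with GC content was 0.18, 0.02, 0.37 and 0.41 over members and 0.40, 0.43, 0.39 and 0.47 over the others. Other protein-coding genes with an ORF no longer than the members' median had medians of 1.40 (n = 908), 1.04 (914), 1.14 (948) and 0.74 (981), and 76.7, 64.7, 66.6 and 62.0% of them rose. Members with such an ORF had higher medians of 2.53, 1.95, 2.07 and 1.48. These groups were not compared by a test, because genes are not replicates.

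**Figure D5:**
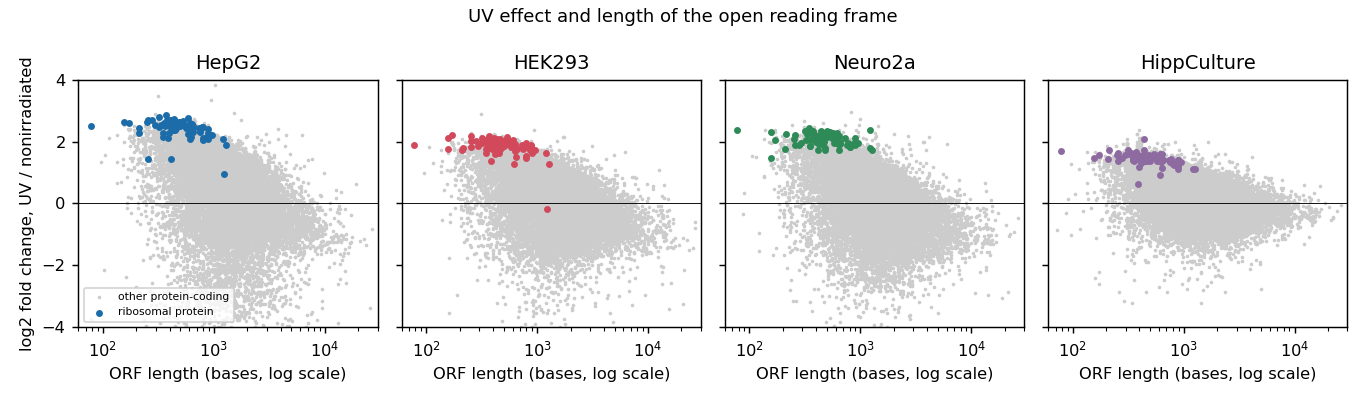
Log2 fold change (y axis) against ORF length in bases (x axis, log scale) for ribosomal protein mRNAs (coloured) and other protein-coding genes (grey) in each cell type. The members occupy the upper edge of the short genes in all 4 panels, and RPL3L lies lowest in both human lines.

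Medians of members with and without the pyrimidine start lay close, a difference that was not tested. Members with the pyrimidine start had a median of 2.53 in HepG2 (n = 46) against 2.42 for those without it (n = 17), and 1.93 against 1.83 in HEK293. Among other protein-coding genes the medians were 0.41 (n = 743) against 0.13 (n = 10069) in HepG2, and 0.11 (n = 783) against -0.02 (n = 10565) in HEK293. Of the lowest members with a window in HepG2, RPL28 had a run of 8 pyrimidines and RPL7A one of 16, while RPS27L and RPL4 had none. The highest there, RPL35, RPL36 and RPS9, all had the run.

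Genes of the same machinery outside the name rule gave a graded picture. FAU, which encodes a ribosomal protein as a fusion with a ubiquitin-like protein, had 2.45 ± 0.14, 1.87 ± 0.15, 2.30 ± 0.10 and 1.71 ± 0.09 in the order used above. In the list that holds FAU and relatives such as RPL22L1, RPL26L1, RPL36AL, RPL7L1 and mouse Rps3a1, 6 of 6 tested rose in HepG2 and both mouse cell types and 5 of 6 in HEK293, with list medians of 2.20, 1.68, 1.99 and 1.5. RPL7L1, a relative of RPL7, was lowest in each (0.16, -0.03, 0.97 and 0.65), and in HEK293 it was not called (adjusted p = 0.93).

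The translation elongation factors rose in 6 of 6 in every cell type, with medians of 1.73, 1.21, 1.41 and 0.88. The pyrimidine start was found in 3 of the 4 human ones with a start window. EEF1B2 was highest in each (2.35 ± 0.14, 1.82 ± 0.14, 1.99 ± 0.11 and 1.39 ± 0.09), while EEF2, the translocase, had 1.24 ± 0.11, 0.49 ± 0.15, 0.90 ± 0.15 and 0.52 ± 0.10. Of 11 other mRNAs of the TOP class, 10, 8, 8 and 6 rose. RACK1, a scaffold on the small subunit, rose in each with 2.10, 1.51, 1.77 and 1.08. The gene for the poly(A)-binding protein, PABPC1, had -0.25 in HepG2, -0.28 in HEK293 and -0.02 in HippCulture, none called, and fell by 0.42 in Neuro2a, where Nap1l1 fell by 0.66.

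The 78 mitochondrial ribosomal protein mRNAs, which serve another ribosome, rose in 76, 67, 76 and 69 cases and fell in 1, 2, 0 and 2, with medians of 1.71, 1.38, 1.56 and 1.08. Of 27 ribosome assembly factors, 21 rose and 5 fell in HepG2, and the counts elsewhere were 13 and 4 (HEK293), 17 and 4 (Neuro2a), and 12 and 3 (HippCulture). MDN1, a very large ATPase of the early large subunit, was the lowest of them throughout (-1.27, -1.17, -1.26 and -0.40). Of the 7 regulators of TOP translation, 2 rose and 4 fell in HepG2 and HEK293, 2 rose and 3 fell in Neuro2a, and 1 rose and 2 fell in HippCulture. EIF4EBP1, an inhibitor of cap-dependent initiation, rose in each (2.30 ± 0.08, 1.81 ± 0.15, 1.90 ± 0.10 and 0.68 ± 0.22). LARP1, which binds the TOP tract, fell by 1.23, 1.21, 0.63 and 0.33. MTOR, the kinase, fell by 0.61, 0.67 and 0.36 in the lines and had -0.02 in HippCulture (adjusted p = 0.83 by edgeR's quasi-likelihood test).

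The directions of these other genes hinge on scaling more than those of the members. On library totals alone 3 of the 6 elongation factors rose in each cell type and 1, Eef2, fell in Neuro2a. EEF2 had values below 0 in all 4 (-0.07, -0.26, -0.31 and -0.04). Only the one in Neuro2a was called (adjusted p = 0.041 by edgeR's quasi-likelihood test). Of the further lists, the other mRNAs of the TOP class split into 5, 5, 4 and 4 higher and 4, 3, 6 and 5 lower. The assembly factors reversed, with 4, 2, 0 and 1 higher and 20, 11, 21 and 12 lower, and medians of -0.57, -0.16, -0.64 and -0.28. On the same scale 47, 53, 46 and 50 of the 78 mitochondrial ribosomal protein mRNAs rose and 15, 5, 12 and 5 fell, FAU kept 1.14, 1.10, 1.11 and 1.15, and EIF4EBP1 in HippCulture had 0.11, not called (adjusted p = 0.65 by edgeR's quasi-likelihood test).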

How the data were processed

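Ribosomal RNA was removed from total RNA and libraries were sequenced by the authors, who mapped reads to hg38 or mm10 with TopHat2 (2.1.1 per the labels). The deposited values are raw counts on GENCODE exons, for which the headers name featureCounts 1.5.3 (HepG2) or 1.6.1 (other cells). Per the file headers, reads that overlap several genes counted for each, and no option for strand or multiple mapping was named. Reads of overlapping genes, antisense genes included, therefore cannot be told apart. Reads that fit both a member and a near-identical pseudogene may be missing from the counts, which was not tested. Adding pseudogene counts cannot restore such reads. The labels name a stranded kit and the methods an unstranded one. Of the members, 50 in human and 36 in mouse share exon bases with another gene. Pseudogene counts were at most 0.0705% of a library.

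The counts were analysed as deposited with edgeR 4.0.16 in R 4.3.3, by glmQLFit and glmQLFTest with TMM factors, separately in each cell type, over all genes with a mean of at least 0.5 CPM in the nonirradiated samples. The interaction was fitted over both cell types of a species. The SE is the log2 fold change divided by the square root of F. Single shares were compared by exact permutation (Python 3.11.15). Symbols came from GENCODE by Ensembl ID, for 98.9% of human and 99.8% of mouse genes. ORF lengths came from the annotated coding transcripts, and start windows from RefSeq. Only the edgeR fit within a cell type was tested on simulated data, with few genes changed and as many up as down. Broad shifts like those in these libraries were not simulated. The alternatives were DESeq2 1.42.0 size factors or test, library totals alone, other filters (any count, 10 counts in every sample, mean CPM over all 6 samples), a replicate block, each sample left out, pseudogene counts added and members without shared exon bases. Members and lists were chosen with earlier results of these data known. The genes named are a list of well-known members, the 3 highest and 3 lowest per cell type, each member that did not rise, and the largest differences between cell types, and RPL36, RPS12, RPS18, Rpl19 and RPL7A were added for their values. Some members and list genes are not reported here by name. Samples with the same replicate number correlated in their deviations from the group means in HEK293 (0.59, 0.30 and 0.39). In the other cell types the correlation was at most 0.23, with at least 1 pair under 0.1 in each. It was weak but positive for every pair in Neuro2a and HippCulture. The labels state no pairing, and these correlations do not settle in which cell types the numbers pair samples. The reported fits, those of HEK293 and of the interaction included, ignore the replicate number, and the replicate block is given as an alternative. No column of per-sample values was left unused (0). Depth was 6910907 to 53511592 counts per sample.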

Additional observations from a re-analysis of the deposited data

Results flagged for a closer look

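The UV effect on 6 named members differed between the cell types of a species by the interaction test. In the human lines the log2 fold change was higher in HepG2 than in HEK293 by 0.70 for RPS13, 0.69 for RPL15 and 0.68 for RPS9. Each of these calls was lost without at least 1 library. Only 4 of 79 members were called, beside 3.1% of all genes tested, and the instrument model also differed between these lines. In the mouse cells the log2 fold change was higher in Neuro2a than in HippCulture by 1.38 for Rpl22, 1.06 for Rpl15 and 0.86 for Rpl39. There 71 of 77 members were called, beside 8.41% of all genes tested, and the log2 fold changes of all genes also spread more in Neuro2a. On library totals alone only Rpl22 of the 6 stayed past the threshold. The groups hold 3 samples each, too few for the test for single samples that stand apart.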

How the results depend on the processing

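Counts of members that rose stayed within 1.5 times the reported ones under every alternative except the restriction to members without shared exon bases, which left fewer members to test (29 of 29 in HepG2, 29 of 30 in HEK293, 43 of 43 in Neuro2a and 41 of 41 in HippCulture rose). Library totals alone gave members' medians of 1.18, 1.11, 0.84 and 0.90 in HepG2, HEK293, Neuro2a and HippCulture. At least 10 counts in every sample gave 2.22 in HepG2, 1.77 in HEK293 and 1.90 in Neuro2a. Leaving out single samples gave 2.28 to 2.54 in HepG2. RPL3L turned to -0.35 in HepG2 on library totals, and leaving out single samples put it between -0.88 and 0.38 in HEK293. The count of members with a higher effect in HepG2 than in HEK293 was 4 as reported, 0 on library totals (with 1 higher in HEK293), 28 by the DESeq2 test, 0 with every gene of at least 1 count, 40 with the replicate block and 0 to 10 with single samples left out. The count higher in Neuro2a than in HippCulture was 71 as reported, 1 on library totals and 64 to 74 with single samples left out. The replicate block changed no other count of calls by over 1.5 times. The causes of these changes were not tested. RPL3L, RPL39L and RPL10L are limited by few or no reads in several cell types, for RPL39L and RPL10L also in HepG2 with its deepest libraries.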
